A study of Mus musculus with 19 samples.

Results

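Plasminogen activation and coagulation in the suprarenal aorta were followed through 8 regulators, Plau, Plaur, Serpine2, F3, Tfpi, Thbd, Procr and Pros1. They were taken by symbol from the 20408 genes of the expression table, chosen as a set for their function. All 8 were present, and all 8 were among the 14845 genes that passed the filter on low values, a minimum of 10 normalized counts in 4 or more mice. RNA came from the aorta of 19 male mice, all ApoE-/- on a C57BL/6J background, all carrying the tamoxifen-inducible SMA-CreERT2 transgene, and all given tamoxifen and regular chow. In IKKβ-/- mice the floxed Ikbkb gene, which encodes the inflammatory kinase IKKβ, was deleted through this Cre. IKKβ+/+ mice were SMA-CreERT2 ApoE-/- littermates. Mice were used at 8 weeks of age, when by the methods the tamoxifen injections began. After further days of rest they received by osmotic pump, for 24 h, either saline or Ang II. The Ang II dose was 1000 ng/min/kg by the methods (the labels give a range of 500 to 1000). There were 5 IKKβ+/+ mice with saline, 5 IKKβ+/+ mice with Ang II, 4 IKKβ-/- mice with saline and 5 IKKβ-/- mice with Ang II.

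Plasmin, the protease that dissolves fibrin and also activates other matrix-degrading enzymes, is made from plasminogen by the activators urokinase (Plau) and tissue plasminogen activator (Plat). Urokinase works at the cell surface when bound to its receptor (Plaur), and serpins such as protease nexin-1 (Serpine2) inhibit it. Coagulation starts when tissue factor (F3), which the outer vessel wall holds away from blood, meets factor VII; TFPI blocks that first step, while thrombomodulin (Thbd), the endothelial protein C receptor (Procr) and protein S (Pros1) serve the protein C pathway, which shuts the cascade down.

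The libraries held 11382573 to 19906694 reads on genes (median 14580208). The level of Ikbkb was 699.7 ± 66.8 normalized counts in IKKβ+/+ mice (SD, n = 10) and 23.8% less, 533 ± 78.9 (n = 9), in IKKβ-/- mice, with p = 0.000173 in a two-sided exact permutation test and with 8 values of IKKβ-/- mice under the IKKβ+/+ minimum. The Cre acts in cells that express smooth muscle actin, whereas the RNA came from the whole wall. Smooth muscle markers were abundant in every mouse, with 309864 to 647800 normalized counts summed over 8 genes. Mitochondrial genes took 5.99% to 14.1% of reads in IKKβ+/+ mice and 7.88% to 38.7% in IKKβ-/- mice, the highest being IKKβ-/- saline mouse X2406 (38.7%) and IKKβ-/- Ang II mouse X2385 (37.2%). Each group had its own run of mouse numbers, and a batch that followed the groups cannot be told apart from them.

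Divided by the length of the exons of each gene, the 8 regulators spanned a wide range in IKKβ+/+ saline aorta. Serpine2 (2019 ± 179 normalized counts per kb, SD, n = 5) and F3 (1976 ± 250) stood at the top and did not differ beyond their spread. Thbd (941 ± 158), Pros1 (471 ± 40.9) and Procr (222 ± 52.0) followed. Procr did not differ from Plau (180 ± 66.8) beyond the spread, and Tfpi (78.5 ± 3.34) and Plaur (54.7 ± 10.6) were the lowest. Protease nexin-1 and tissue factor thus lay at the 98.9 and 98.8 percentiles of the genes tested on this per-length scale, and the urokinase receptor at the 49.4 percentile.

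Of the 8 regulators, 2 passed the test for Ang II against saline in IKKβ+/+ mice, Plaur higher and Serpine2 lower, beside 8.66% of all genes tested (4.33% higher and 4.33% lower). In IKKβ-/- mice 2 of 8 also passed, Thbd higher and Serpine2 lower, beside 5.29% of all genes (2.59% higher and 2.69% lower). Passing required, in limma fitted to log2(normalized count + 1) of all genes tested, a Benjamini-Hochberg adjusted p below 0.1 together with more than a 1.2-fold change. Values without overlap between Ang II and saline mice were found for 3 of 8 in IKKβ+/+ (Plaur, Serpine2 and Tfpi), beside 8.42% of all genes, and for 2 of 8 in IKKβ-/- (Thbd and Serpine2), beside 5.29%. The median log2 fold change of the 8 was -0.10 in IKKβ+/+ and -0.07 in IKKβ-/-, against 0.01 and -0.00 over all genes tested.

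**Figure D1:**
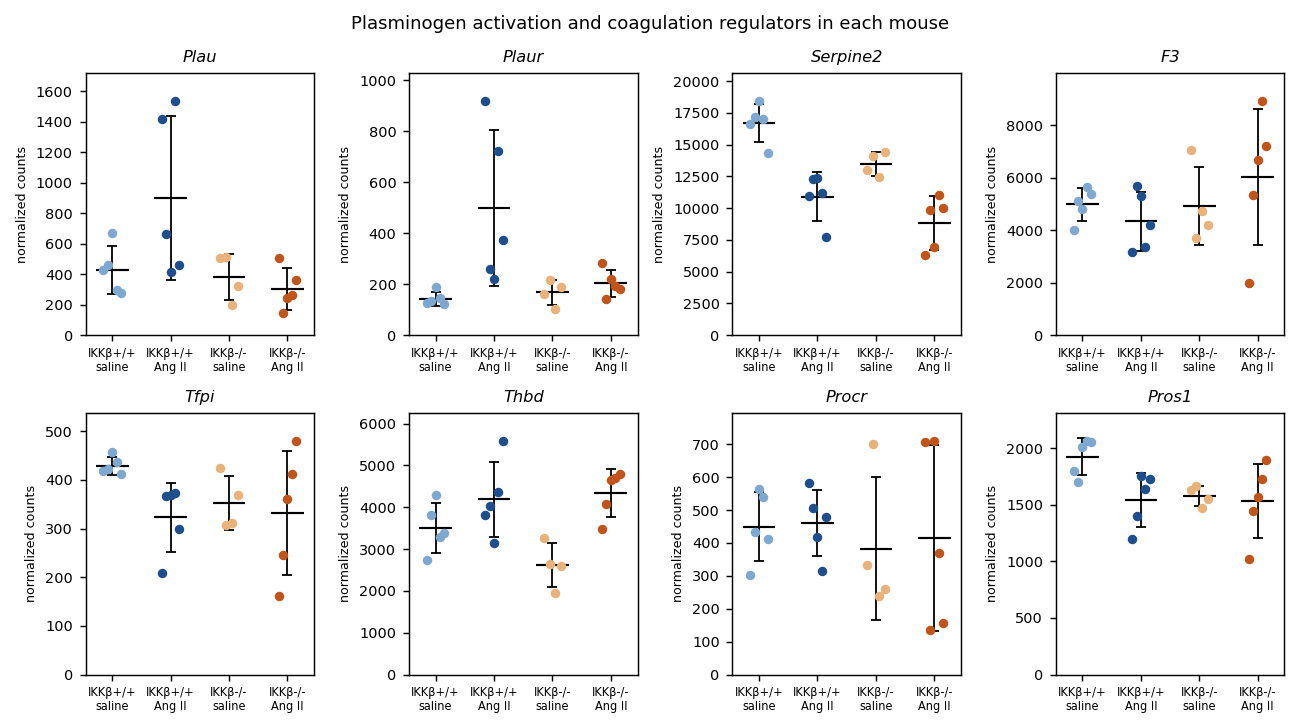
Normalized counts (linear axis from 0) of the 8 regulators in each mouse, 1 point a mouse, in the 4 groups of 4 or 5 mice; horizontal lines are group means and bars are 1 SD. Plaur in IKKβ+/+ mice with Ang II lies above all IKKβ+/+ saline mice, Serpine2 with Ang II lies below the saline mice of the same genotype in both genotypes, and Thbd with Ang II lies above saline in IKKβ-/- mice.

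The urokinase receptor showed the highest fold change of the set. Plaur (ENSMUSG00000046223.10) lies on the plus strand of chromosome 7 at 24462484-24475968 (GRCm38). Its normalized counts in the 5 IKKβ+/+ saline mice were 124, 134, 189, 146 and 121, and in the 5 IKKβ+/+ Ang II mice they were 917, 262, 222, 720 and 374. Every Ang II mouse lay above every saline mouse, and mice X2350 (917) and X2358 (720) were far above the rest. Plaur rose 3.02-fold (log2 fold change 1.59, SE 0.32, limma adjusted p = 0.0099), and it stayed past the threshold in all 31 alternative settings (adjusted p 5.4e-06 to 0.040), with a log2 fold change of 1.32 without mouse X2350. Plaur in IKKβ-/- mice was at 161, 215, 104 and 191 with saline and at 283, 141, 220, 193 and 181 with Ang II. These overlapped, and the log2 fold change was 0.29 with a 95% interval of -0.41 to 0.99 (adjusted p = 0.71).

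The sequence ahead of the RefSeq transcription start of Plaur (chr7:24462233-24462482, plus strand, GRCm38.p6) is shown because Plaur had the highest fold change of the 8. Capitals mark an AP-1 motif (TGANTCA) 69 to 63 bases before the start and a run of overlapping GC-rich motifs, namely an EGR motif (GCGNGGGCG) 109 to 101 bases before it and 3 GC boxes (GGGCGG), both strands having been searched.
Plaur: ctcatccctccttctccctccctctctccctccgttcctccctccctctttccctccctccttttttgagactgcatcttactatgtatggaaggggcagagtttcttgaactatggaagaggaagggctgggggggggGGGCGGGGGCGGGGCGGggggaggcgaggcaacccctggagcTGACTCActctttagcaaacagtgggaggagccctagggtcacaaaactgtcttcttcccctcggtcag
The AP-1 motif is found in 6.75%, the EGR motif in 4.70% and the GC box in 32.7% of the 32851 mouse promoter windows of the same length. These matches describe letters and no binding was measured. Plau and Thbd had no RefSeq window and were not searched. Among the other 6 of 8 genes, Procr and F3 also held AP-1 motifs and Serpine2 also held an EGR motif. No window of these 6 held the consensus NF-kB motif (5% of all windows), the cAMP response element TGACGTCA (1.55%), a CArG box (1.47%) or the E-box CACGTG (6.02%).

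Urokinase itself varied with its receptor. Plau (ENSMUSG00000021822.3, chromosome 14, 20836660-20843385, plus strand) was at 428, 462, 671, 294 and 279 normalized counts in IKKβ+/+ saline mice and at 1421, 666, 415, 1534 and 459 with Ang II. The high mice were again X2350 and X2358, while the others lay within the saline range, so that the groups overlapped. The log2 fold change was 0.93 (95% interval 0.12 to 1.74) and did not pass (limma adjusted p = 0.18), although it passed with array quality weights (0.82, adjusted p = 0.096), in DESeq2 (1.08, 0.090) and without mouse X2356 (1.16, 0.077). Plau in IKKβ-/- mice was at 504, 511, 200 and 321 with saline and at 505, 144, 246, 263 and 362 with Ang II, a log2 fold change of -0.36 (95% interval -1.21 to 0.50, adjusted p = 0.71).

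Once the group means were removed, Plau and Plaur deviated together across the 19 mice (Pearson r = 0.82, permutation p = 0.00081, adjusted p = 0.022; Spearman rho = 0.84, permutation p = 0.0007, adjusted p = 0.020, over 28 pairs of regulators). Without mice X2350 and X2358, which lay farthest from the median of Plau, r was 0.76. The group means for this value were still those of all 19 mice, so both mice kept a part in it. Leaving out any 1 mouse, with the group means taken again, gave r between 0.78 and 0.85. The adjusted permutation p was above 0.05 without mouse X2380 (0.071) and without mouse X2383 (0.071). Each point shares its library and tissue piece for both genes. The other pairs that passed did so by Pearson's r only, and moved most without mouse X2380, the IKKβ-/- Ang II mouse with the lowest F3, Tfpi and Pros1. F3 and Tfpi gave r = 0.83 (permutation p = 0.0016, adjusted p = 0.022) and rho = 0.70 (permutation p = 0.0052, adjusted p = 0.072), with r = 0.64 and an adjusted permutation p of 0.13 without that mouse. The pair also missed 0.05 without X2350 (adjusted permutation p = 0.074), X2383 (0.071) or X2384 (0.051), where r stayed between 0.83 and 0.86. Tfpi and Pros1 gave r = 0.83 (permutation p = 0.0028, adjusted p = 0.026) and rho = 0.58 (permutation p = 0.032, adjusted p = 0.18), with r = 0.67 and an adjusted permutation p of 0.13 without it. The threshold was also missed without X2350 (adjusted permutation p = 0.12), X2383 (0.079), X2384 (0.062), X2385 (0.055) or X2386 (0.073), with r between 0.79 and 0.84. Without the 2 mice farthest from the median, r was 0.66 for F3 and Tfpi and 0.57 for Tfpi and Pros1. Here too the group means were those of all 19 mice, unlike in the fits without 1 mouse.

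**Figure D2:**
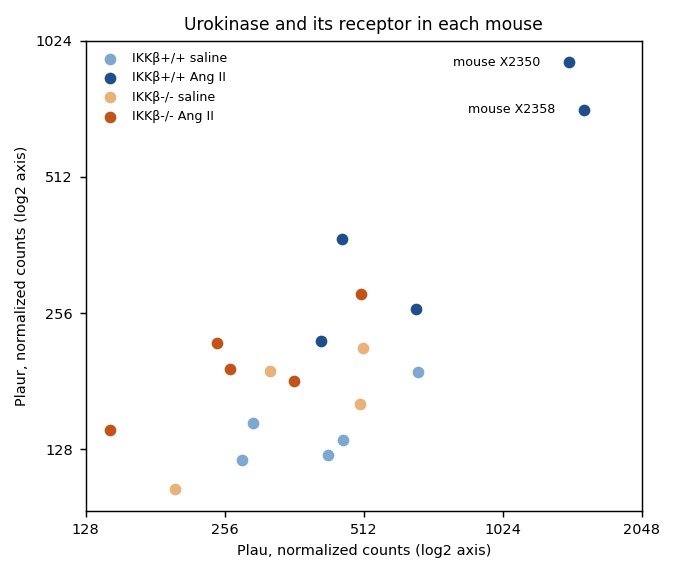
Normalized counts of Plau (horizontal) and Plaur (vertical) in each of the 19 mice, both on log2 axes, coloured by group. IKKβ+/+ Ang II mice X2350 and X2358 sit at the upper right with 1421 and 1534 counts of Plau and 917 and 720 of Plaur.

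Protease nexin-1, a serpin that inhibits thrombin, urokinase and plasmin, fell with Ang II in both genotypes. Serpine2 (ENSMUSG00000026249.10, chromosome 1, 79794197-79861180, minus strand) was at 16652, 17208, 18418, 17026 and 14354 normalized counts in IKKβ+/+ saline mice and at 10946, 12334, 12397, 11199 and 7717 with Ang II. No Ang II mouse reached the lowest saline mouse, and Serpine2 fell by 0.63 on the log2 scale (SE 0.16, 1.55-fold lower, limma adjusted p = 0.030), a call kept in all 31 alternative settings (adjusted p 0.0029 to 0.072). Serpine2 in IKKβ-/- mice was at 13046, 14121, 12429 and 14450 with saline and at 6301, 9876, 6921, 11072 and 10048 with Ang II. Again no Ang II mouse reached the saline range, and Serpine2 fell by 0.64 on the log2 scale (SE 0.17, 1.56-fold lower, adjusted p = 0.041). The difference between the genotypes' Ang II effects was -0.01 (95% interval -0.49 to 0.47). The call in IKKβ-/- mice was lost without mouse X2384 (log2 fold change -0.56, adjusted p = 0.104) and when only these groups entered the fit (adjusted p = 0.14).

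The window before the RefSeq start of Serpine2 (chr1:79858666-79858915, minus strand, GRCm38.p6, inside the span of the gene as GENCODE gives it) is shown as the counterpart that fell. Capitals mark 6 GC boxes (GGGCGG) and an EGR motif (GCGNGGGCG) 17 to 9 bases before the start. The EGR motif overlaps the GC boxes at 19 to 14 and at 13 to 8 bases before the start.
Serpine2: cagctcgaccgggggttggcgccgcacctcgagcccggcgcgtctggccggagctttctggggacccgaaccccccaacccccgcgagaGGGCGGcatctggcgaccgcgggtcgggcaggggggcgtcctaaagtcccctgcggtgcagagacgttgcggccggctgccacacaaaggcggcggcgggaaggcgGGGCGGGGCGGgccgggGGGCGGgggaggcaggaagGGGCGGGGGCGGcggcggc

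Tissue factor was among the most abundant of the 8 and did not pass in any comparison. F3 (ENSMUSG00000028128.13, chromosome 3, 121723537-121735048, plus strand) was at 4022 to 5661 normalized counts (median 5106) in IKKβ+/+ saline mice, 3155 to 5679 (4189) in IKKβ+/+ Ang II mice, 3689 to 7065 (4464) in IKKβ-/- saline mice and 1991 to 8913 (6690) in IKKβ-/- Ang II mice. All 4 ranges overlapped, and the last was the widest, from mouse X2380 to mouse X2385. The Ang II log2 fold change was -0.23 in IKKβ+/+ (95% interval -0.84 to 0.38) and 0.18 in IKKβ-/- (-0.47 to 0.83). Without mouse X2380, F3 passed as higher in IKKβ-/- than in IKKβ+/+ mice with Ang II (log2 fold change 0.72, limma adjusted p = 0.099, against 0.36 with all mice).

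Its inhibitor Tfpi (ENSMUSG00000027082.15, chromosome 2, 84432855-84476775, minus strand) was at 417, 422, 456, 438 and 411 normalized counts in IKKβ+/+ saline mice and at 208, 367, 369, 373 and 298 with Ang II. The saline mice lay close together and every Ang II mouse was below them, but the log2 fold change of -0.44 (95% interval -0.91 to 0.03) did not pass (limma adjusted p = 0.28; 0.097 when only these groups entered the fit). Tfpi in IKKβ-/- mice was at 307 to 424 with saline and at 161 to 481 with Ang II, which overlapped (log2 fold change -0.18, 95% interval -0.68 to 0.32).

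Thrombomodulin, the endothelial receptor that turns thrombin towards activating protein C, rose in IKKβ-/- mice. Thbd (ENSMUSG00000074743.4, chromosome 2, 148404466-148408188, minus strand) was at 3258, 2655, 1958 and 2607 normalized counts in IKKβ-/- saline mice and at 3469, 4080, 4642, 4710 and 4806 with Ang II. The groups did not overlap, and Thbd rose 1.67-fold (log2 fold change 0.74, SE 0.17, limma adjusted p = 0.020). In IKKβ+/+ mice it was at 2733, 3823, 4292, 3288 and 3379 with saline and at 3810, 4029, 3142, 4363 and 5594 with Ang II, which overlapped, with a log2 fold change of 0.25 (95% interval -0.08 to 0.58). Between IKKβ-/- and IKKβ+/+ mice the log2 fold change of Thbd was -0.43 with saline (95% interval -0.77 to -0.08, adjusted p = 0.17) and 0.07 with Ang II (-0.26 to 0.39). The difference of the Ang II effects was 0.49 (95% interval 0.02 to 0.97, adjusted p = 0.43) and did not pass.

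Each call in IKKβ-/- mice was lost in a fit that used another measure of the same libraries, while the estimates kept their direction. All 4 adipocyte markers tested rose with Ang II in IKKβ-/- mice (median log2 fold change 4.37), their summed level (5 markers) being 1020 to 4117 normalized counts with saline and 2299 to 23923 with Ang II, highest in mice X2384 and X2385. An adipocyte score was the mean over the 4 markers tested of log2(normalized count + 1), each centred on its own mean. With this score as a covariate the Serpine2 value was -0.59 (limma adjusted p = 0.44) and the Thbd value 0.81 (0.25). The calls over all genes then went from 785 to 15. Without mice X2406 and X2385, which had the highest mitochondrial share, Serpine2 stayed past the threshold (-0.77, adjusted p = 0.062) and Thbd did not (0.58, 0.15). In the same comparison 1 of 11 endothelial markers rose and none fell, with a median of -0.34. Of 4 Schwann cell markers 1 rose (median 1.39, summed level 353 to 1265 normalized counts with saline and 695 to 2195 with Ang II). The 1 hepatocyte marker tested was lower (-5.32), the 3 in the table summing to 42.8 to 333 counts with saline and 0 to 7.94 with Ang II. Whether other tissue on the vessel or RNA quality had a part in these values was not tested, and in RNA of the whole wall fewer cells of a type and less RNA per cell cannot be told apart.

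In IKKβ+/+ mice the marker lists moved as well. With Ang II, 3 of 11 endothelial markers were lower (median -0.72, summed level 24170 to 39911 with saline and 13351 to 25966 with Ang II), 3 of 8 smooth muscle markers were higher (median 0.33) and 1 of 8 fibroblast markers was lower (median -0.52). The part of these shifts in the members' values was not tested. Plaur and Serpine2 both stayed past the threshold with an endothelial or an adipocyte score as a covariate. No smooth muscle or fibroblast score was used as a covariate. Mice X2350 and X2358, the highest in Plau and Plaur, had the highest summed smooth muscle levels of the 19 mice (617246 and 647800). Among IKKβ+/+ mice they also had the lowest summed endothelial (15402 and 13351) and fibroblast levels (81303 and 91025).

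The remaining 2 regulators, both of the protein C pathway, did not pass in any comparison. Pros1 (ENSMUSG00000022912.8, chromosome 16, 62854307-62929346, plus strand), which encodes the protein C cofactor protein S, was at 1701 to 2068 normalized counts in IKKβ+/+ saline mice and 1194 to 1754 with Ang II. These ranges overlapped, with a log2 fold change of -0.33 (95% interval -0.62 to -0.04, limma adjusted p = 0.18) that passed with array quality weights (-0.31, adjusted p = 0.064) and without mouse X2380 (-0.33, 0.074). Pros1 in IKKβ-/- mice was at 1470 to 1668 with saline and 1025 to 1893 with Ang II (log2 fold change -0.07, 95% interval -0.38 to 0.23). Procr (ENSMUSG00000027611.12, chromosome 2, 155751117-155755471, plus strand), the receptor that presents protein C to thrombomodulin, was at 301 to 563 and 315 to 582 in IKKβ+/+ mice with saline and Ang II, and at 238 to 702 and 136 to 711 in IKKβ-/- mice. Its groups overlapped throughout, its coefficient of variation reached 68.1% in IKKβ-/- Ang II mice, and its Ang II log2 fold changes were 0.04 in IKKβ+/+ (95% interval -0.80 to 0.87) and -0.07 in IKKβ-/- (-0.95 to 0.82). Over the alternatives other than single mice left out, they ranged from -0.10 to 0.71 in IKKβ+/+ and from -0.80 to 0.13 in IKKβ-/-, without a call.

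**Figure D3:**
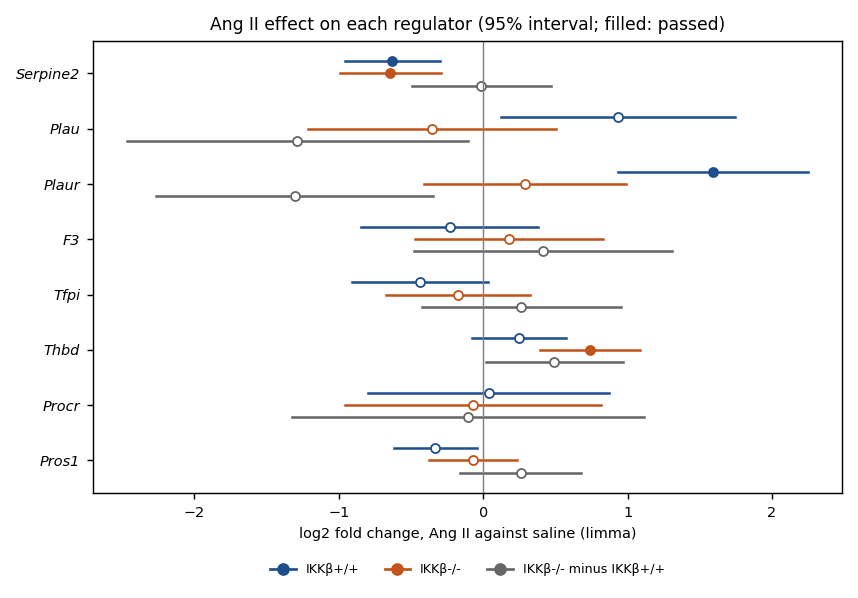
Log2 fold change of each regulator for Ang II against saline (horizontal axis, limma on log2(normalized count + 1)) in IKKβ+/+ mice, in IKKβ-/- mice, and the difference of both effects; points are estimates, lines 95% intervals, and filled points passed the test. Serpine2 lies at -0.63 and -0.64 in IKKβ+/+ and IKKβ-/- mice, and Plau and Plaur show differences of -1.29 and -1.30 that did not pass.

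The difference between genotypes in the Ang II effect asks whether loss of IKKβ changed the response. No regulator passed for it in limma, edgeR passed 0 and DESeq2 passed 1 of 8, while 3 of 8 had an unadjusted p under 0.05, beside 0% of all genes called (11.1%, or 1654 of 14845, at an unadjusted p under 0.05; edgeR called 3 genes and DESeq2 279, or 1.88%). The 3 were Plaur (difference -1.30, 95% interval -2.26 to -0.34, adjusted p = 0.33; DESeq2 -1.53, adjusted p = 0.070), Plau (-1.29, -2.47 to -0.11, adjusted p = 0.41) and Thbd, given above. In limma and edgeR the effect of Ang II on urokinase and its receptor was therefore not shown to differ between genotypes. For the receptor the result depended on the tool, since it passed in DESeq2. The intervals of the other 5 all included 0 and ranged from -0.49 to 0.47 for Serpine2 to -1.32 to 1.11 for Procr.

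Among mice given Ang II, IKKβ-/- and IKKβ+/+ mice gave no call among the 8 in limma or edgeR and 2 in DESeq2, beside 0.128% of all genes in limma and 3.51% in DESeq2, and 2 of 8 had an unadjusted p under 0.05 in limma, beside 14.3% of all genes. These were Plau, 2.76-fold lower in IKKβ-/- mice (log2 fold change -1.46, 95% interval -2.27 to -0.65, limma adjusted p = 0.16; DESeq2 -1.56, adjusted p = 0.025), and Plaur, 2.15-fold lower (-1.11, -1.76 to -0.45, adjusted p = 0.18; DESeq2 -1.29, adjusted p = 0.012). Both also passed in limma without mouse X2356 (Plau -1.69, adjusted p = 0.062; Plaur -1.34, 0.053) and without mouse X2380 (-1.68, 0.074; -1.23, 0.092). No regulator was free of overlap between these groups, beside 1.54% of all genes. Serpine2 was lower by a log2 value of -0.32 (95% interval -0.65 to 0.01), and the intervals of F3, Tfpi, Procr and Pros1 included 0.

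With saline, the genotypes differed by no call among the 8 in limma, edgeR or DESeq2, beside 5.47% of all genes in limma and 9.68% in DESeq2, and 1 of 8 (Thbd) had an unadjusted p under 0.05, beside 19.2% of all genes. Pros1 alone was free of overlap, at 1470 to 1668 in IKKβ-/- and 1701 to 2068 in IKKβ+/+ mice, beside 8.76% of all genes. Its log2 fold change was -0.28 (95% interval -0.59 to 0.02, limma adjusted p = 0.29; 0.099 when only these groups entered the fit). Serpine2 was at -0.31 (-0.66 to 0.04, adjusted p = 0.33). The median of the 8 was -0.29, against -0.02 over all genes tested. Of 6 macrophage markers, 2 were lower in these IKKβ-/- mice (median -0.85, summed level 3853 to 5208 against 6290 to 8621 in IKKβ+/+ saline mice), while the 3 hepatocyte markers in the table summed to 42.8 to 333 counts in IKKβ-/- saline mice and 1.76 to 35.7 in IKKβ+/+ saline mice. No endothelial (median -0.47), fibroblast (-0.49), adipocyte (-2.27), smooth muscle (0.29) or Schwann cell marker (0.28) was called in this comparison. The part of any of these lists in the members' values was not tested. The comparisons within one treatment or genotype share mice with each other and are not independent.

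**Figure D4:**
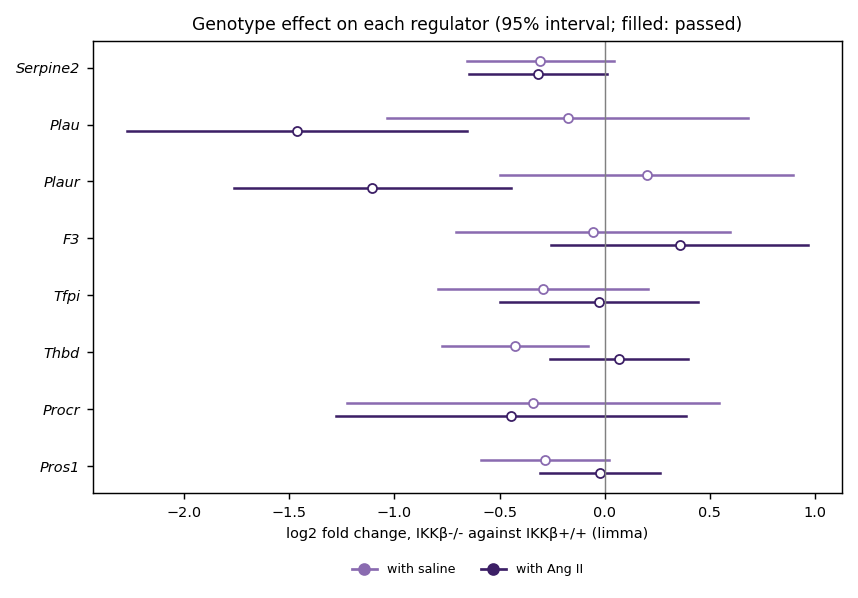
Log2 fold change of each regulator for IKKβ-/- against IKKβ+/+ mice (horizontal axis, limma on log2(normalized count + 1)) with saline and with Ang II; points are estimates, lines 95% intervals, and open points did not pass. No point is filled, and Plau (-1.46) and Plaur (-1.11) with Ang II lie farthest from 0.

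Around these 8, a list of 61 other genes of plasminogen activation and coagulation gave 50 genes in the table and 36 tested. With Ang II in IKKβ+/+ mice 2 were higher and 3 lower, in IKKβ-/- mice 1 was higher, with saline 2 were lower in IKKβ-/- than in IKKβ+/+ mice, and the genotypes with Ang II and the difference of the effects gave no call in limma. Calls in either direction over all genes were 8.66%, 5.29%, 5.47%, 0.128% and 0% in these 5 comparisons. In the last 2, 11 and 1 of the 36 had an unadjusted p under 0.05 in limma, beside 14.3% and 11.1% of all genes, DESeq2 called 2 and 0, beside 3.51% and 1.88%, and edgeR called 0 and 0. The list's median log2 fold change was 0.06, 0.05, -0.28, -0.24 and 0.05 in these 5 comparisons, against 0.01, -0.00, -0.02, -0.01 and -0.00 over all genes tested. By role, the plasminogen activation genes gave 1 higher and 1 lower of 10 in IKKβ+/+ mice, the coagulation factors 0 higher and 1 lower of 11, the anticoagulants 1 higher and 1 lower of 7, and the receptors for proteases and protein S none of 8.

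Among the other genes of plasminogen activation was Anxa2, which encodes annexin A2, a cell-surface receptor for plasminogen and its tissue activator. Anxa2 rose 1.77-fold with Ang II in IKKβ+/+ mice (log2 fold change 0.82, limma adjusted p = 0.013). It was at 4771 ± 648 normalized counts with saline and 8720 ± 2788 with Ang II (SD, n = 5 each). Its highest mice were again X2350 (10669) and X2358 (12473), and the lowest Ang II mouse (5600) lay just under the highest saline mouse (5654). In IKKβ-/- mice its log2 fold change was 0.43 (95% interval 0.04 to 0.81, adjusted p = 0.23). Serpini1, which encodes neuroserpin, an inhibitor of tissue plasminogen activator, was at 1273 ± 307 with saline and 852 ± 140 with Ang II in IKKβ+/+ mice, lower by a log2 value of -0.55 (limma adjusted p = 0.085), with saline mouse X2378 (732) far below the others, a call that was lost without any 1 of 8 mice (X2350, X2358, X2359, X2370, X2372, X2373, X2376 or X2401), with no filter (adjusted p = 0.10) or with the endothelial score as a covariate (-0.51, 0.20).

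Plat, the gene of tissue plasminogen activator, was called between genotypes in limma with saline. It was at 1965, 1777, 2565, 1956 and 2225 normalized counts in IKKβ+/+ saline mice and at 1017, 862, 526 and 910 in IKKβ-/- saline mice. These did not overlap, and Plat was 2.58-fold lower in IKKβ-/- mice (log2 fold change -1.37, SE 0.32, limma adjusted p = 0.048). With Ang II it was at 1706, 2085, 2006, 2748 and 2746 in IKKβ+/+ and at 440, 999, 1842, 1790 and 1812 in IKKβ-/- mice, which overlapped (-0.87, 95% interval -1.50 to -0.25, adjusted p = 0.22). Plat lies 51138 bases from Ikbkb, the floxed gene, on chromosome 8, and the part of this position in its level was not tested. The saline call was lost without mouse X2406 (-1.16, adjusted p = 0.17), X2403 (-1.40, 0.11) or X2373 (-1.29, 0.12), without the 2 mice of highest mitochondrial share (-1.16, 0.17) and with the adipocyte score as a covariate (-1.13, 0.11).

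The other calls lay outside plasminogen activation. Anxa5, whose product annexin A5 covers the phospholipid that clotting needs, rose 1.34-fold with Ang II in IKKβ+/+ mice without overlap (4471 ± 410 to 6021 ± 1003 normalized counts, SD, n = 5 each, limma adjusted p = 0.027). Nt5e, which makes the platelet inhibitor adenosine, fell by 0.98 on the log2 scale (494 ± 73.0 to 254 ± 57.3, adjusted p = 0.062), and its value was -0.41 (adjusted p = 0.26) with the endothelial score as a covariate; the call was also lost without mouse X2350, X2358, X2373, X2376 or X2378. F8, clotting factor VIII, was low, at 25.4 to 67.8 counts with saline and 6.43 to 35.1 with Ang II in IKKβ+/+ mice (log2 fold change -1.23, limma adjusted p = 0.096), and its call was lost in 10 of the 19 fits without 1 mouse, with no filter (adjusted p = 0.13), in edgeR (0.11) and with the endothelial score as a covariate (-0.91, 0.29). Lman1, which carries factors V and VIII out of the endoplasmic reticulum, rose with Ang II in IKKβ-/- mice (1246 ± 175, n = 4, to 1717 ± 232, n = 5; log2 fold change 0.46, adjusted p = 0.052) and was lower in IKKβ-/- than in IKKβ+/+ saline mice (1785 ± 135, n = 5; -0.53, adjusted p = 0.050). Its Ang II call was lost without mouse X2406 (0.37, adjusted p = 0.17), X2386 (0.40, 0.11), X2403 (0.46, 0.11) or X2384 (0.45, 0.10), with only the groups compared (0.46, 0.16) and with the adipocyte score as a covariate (0.62, 0.25). Its saline call was lost without X2406 (-0.43, 0.17), X2403 (-0.52, 0.13) or X2373 (-0.49, 0.12) and without the 2 mice of highest mitochondrial share (-0.43, 0.16).

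**Figure D5:**
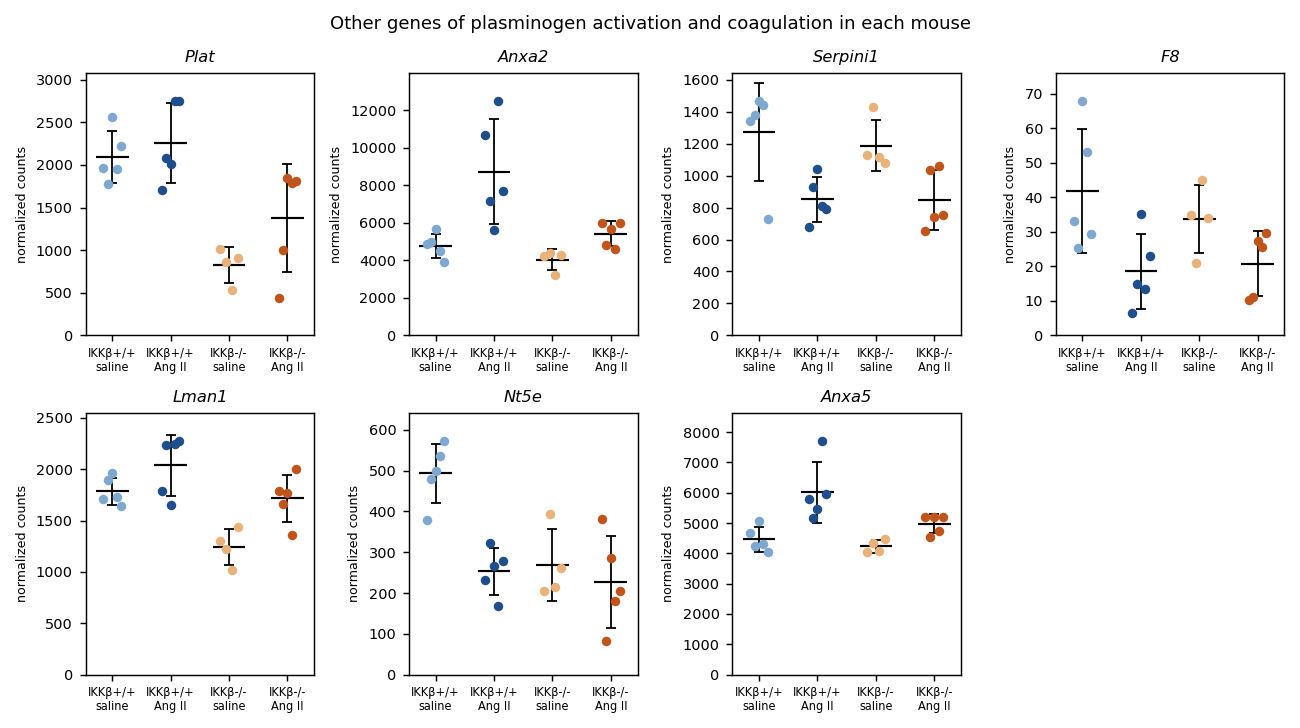
Normalized counts (linear axis from 0) of 7 other genes of plasminogen activation and coagulation in each mouse, 1 point a mouse, in the 4 groups; horizontal lines are group means and bars are 1 SD. Plat in IKKβ-/- saline mice (526 to 1017) lies below all IKKβ+/+ saline mice (1777 to 2565), and Anxa2 in IKKβ+/+ Ang II mice spans 5600 to 12473.

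Across the 19 mice the genes most like each regulator, by Pearson r of log2 values among the genes tested and with group differences included, were as follows. For Plaur they were Tubb6 (r = 0.95), Itga5 (0.94), the fibronectin receptor subunit, and Ehd1 (0.93), and for Plau they were Epha2 (0.91), Plpp1 (0.89) and Msn (0.88). For Serpine2 they were Cpq (0.91), Col4a5 (0.91), a basement membrane collagen, and Manba (0.90). F3 was most like C1qtnf7 (0.91), Cygb (0.90) and Mxra7 (0.88), and Tfpi most like Lum (0.93), one of the fibroblast markers, Clec3b (0.92) and Chp2 (0.91). Thbd was most like Masp1 (0.90), Man2a1 (0.89) and Pdia4 (0.88), Procr most like Sdcbp2 (0.91), Il27ra (0.88) and Adcy4 (0.85), and Pros1 most like Abi3bp (0.93), Add3 (0.92) and Enpp3 (0.91). No 2 regulators shared a gene among these closest 3. All of these points share libraries and tissue pieces, and these correlations are descriptions.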

How the data were processed

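Poly(A) libraries of 19 suprarenal aortas were stranded (KAPA RNA HyperPrep) and sequenced as single reads. Per the methods, reads were trimmed (Trimmomatic 0.35) and aligned by STAR 2.7.1a to GRCm38 and Gencode annotation, and the authors named RSEM and DESeq2 1.30.1 in their processing notes. The deposited signal values are DESeq2-normalized counts, and all (100%, within 0.001) were whole multiples of 1 read, from which reads were recovered. The 8 genes, and the pathway and marker lists, were chosen with earlier results of these data known. A gene of the pathway list is not reported here and was left out of its counts.

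Genes with at least 10 normalized counts in 4 mice or more (14845; 5563 left out) were fitted in limma 3.58.1 (R 4.3.3, eBayes with trend, 1 mean for each group, two-sided, Benjamini-Hochberg over all genes tested) on log2(normalized count + 1), a scale that understates changes of low genes. Alternatives used edgeR 4.0.16, DESeq2 1.42.0, TMM, other filters and thresholds, marker covariates and each mouse left out. The method was tested on simulated data. Pairs of genes were tested by 100000 permutations within groups after removing group means. The other genes named were those of the pathway list that passed in a comparison, and the 3 genes most correlated with each regulator. Exon lengths and coordinates are from GENCODE M21 (14384 of 14845 genes matched), and promoter windows of 250 bases from RefSeq (GRCm38.p6). Nothing states which mice shared a preparation, so p-values measure the spread between mice as sampled.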

Additional observations from a re-analysis of the deposited data

Results flagged for a closer look

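Of 60 groups of values checked (15 genes in 4 groups), 3 held a mouse far from the others by Dixon's criterion at 95%. Chance flags about 1 in 20 groups. Serpini1 was at 731.7 normalized counts in IKKβ+/+ saline mouse X2378, against 1345 in the next lowest, and at 1427 in IKKβ-/- saline mouse X2403, against 1130 in the next highest. Anxa2 was at 3196 in IKKβ-/- saline mouse X2406, which also had the highest mitochondrial share, against 4250 in the next lowest. No value of the 8 regulators was so placed.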

How the results depend on the processing

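Of all values recomputed under alternatives, 1670 kept direction and side of the threshold or, for counts, stayed within 1.5 times. Another 59 lost a call, 15 gained one and 59 changed sign, and 57 counts moved by over 1.5 times or to or from 0. A cause was not tested. Calls among the 8 regulators: Ang II in IKKβ+/+ (2) became 4 with array quality weights; Ang II in IKKβ-/- (2) became 1 with only the groups compared or without the 2 mice of highest mitochondrial share (an alternative chosen after seeing the data) and 0 with the adipocyte covariate; genotype with saline (0) became 1 with only the groups compared; with DESeq2, genotype with Ang II (0) became 2 and the difference (0) became 1. With 1 mouse left out these counts were 2 to 3, 1 to 2, 0 to 0, 0 to 3 and 0 to 0. Pathway list: Ang II in IKKβ+/+ (5) became 3 with no filter, 10 with only the groups compared, 10 with DESeq2, 2 at adjusted p under 0.05, 3 at a fold above 1.5, 3 with the endothelial and 8 with the adipocyte covariate; Ang II in IKKβ-/- (1) became 2 with no filter or DESeq2 and 0 with only the groups compared, at either stricter threshold or with the adipocyte covariate; genotype with saline (2) became 7 with only the groups compared, 8 with weights, 7 with DESeq2, 1 at either stricter threshold and 0 without those 2 mice; genotype with Ang II (0) became 2 with DESeq2; the difference stayed at 0. With 1 mouse left out they were 2 to 8, 0 to 3, 0 to 6, 0 to 3 and 0 to 0, and the pairs past 0.05 (3) were 0 to 4, being 0 without mouse X2380 or X2383 and 1 without X2350 or X2384. Signs turned, for log2 fold changes with intervals that include 0, as follows: Procr in IKKβ+/+ -0.10 (adipocyte; left out -0.10 to 0.16), F3 in IKKβ-/- -0.11 (adipocyte) and -0.0057 (without those 2 mice; left out -0.0010 to 0.54), Tfpi in IKKβ-/- left out -0.34 to 0.058, Procr in IKKβ-/- 0.13 (edgeR) and 0.12 (DESeq2; left out -0.35 to 0.27), Pros1 in IKKβ-/- left out -0.15 to 0.067; genotype with saline, Plau 0.051 (weights) and 0.10 (without those 2 mice; left out -0.35 to 0.10), F3 0.14 (weights), 0.011 (endothelial) and 0.083 (adipocyte; left out -0.24 to 0.067), Procr 0.23 (endothelial) and 0.015 (adipocyte); genotype with Ang II, Tfpi 0.0033 (weights), 0.034 (edgeR) and 0.035 (DESeq2; left out -0.19 to 0.21), Thbd left out -0.030 to 0.18, Pros1 0.031 (weights; left out -0.11 to 0.11); difference, Serpine2 0.036 (weights), 0.013 (TMM), 0.012 (edgeR), 0.0023 (DESeq2), 0.011 (endothelial) and 0.033 (adipocyte; left out -0.13 to 0.10), Procr 0.093 (edgeR) and 0.084 (DESeq2; left out -0.38 to 0.23). The Ikbkb difference kept its direction and threshold in every setting run. No paired analysis was possible because the groups share no replicate numbers. Groups of 4 or 5 mice limit all of these values.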
